A study of Homo sapiens with 2 samples.

Results

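CTCF and the cohesin machinery, which fold chromosomes into loops, were described by 10 genes chosen by name: the insulator protein gene CTCF, the cohesin ring genes SMC1A, SMC3 and RAD21, the STAG1 and STAG2 genes of the subunit bound to the ring, the loader gene NIPBL, and the release and regulatory genes WAPL (WAPAL in older annotation), PDS5A and PDS5B. All 10 were found among the 57820 genes of the count table. The cells were T47D, an established human line of estrogen receptor-positive ductal breast carcinoma, carrying Y537S in ESR1, an exchange in the ligand-binding domain that keeps estrogen receptor alpha active without hormone. The medium was hormone-deprived, a control siRNA was given at 25 nM, and the labels put the samples in 1 group of 2 replicate libraries of total RNA. The hormone deprivation, the transfection and the mutation were shared by both libraries. The labels name neither the way the mutation was introduced nor whether the line is a single clone. Other columns of the deposited tables match no sample described here and were not analysed, so every value below is a level in this single state or a difference between its 2 libraries.

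Cohesin is a ring of SMC1A, SMC3 and the kleisin RAD21 that closes around DNA, with either STAG1 or STAG2 bound to the kleisin. NIPBL, with its partner MAU2, loads the ring and drives the extrusion of loops. WAPL and the PDS5 proteins release it again, and CTCF, a zinc finger protein, halts it at its binding sites and so sets the borders of loops. In breast cancer cells cohesin is also known to occupy many estrogen receptor binding sites, with and without CTCF.

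The libraries held 41370662 reads on genes in replicate 1 and 37198274 in replicate 2. Luminal epithelial markers were present, with all 10 detected and a summed level of 3326 and 3028 TPM (the reads per exon length scaled to the same total in each library) in replicates 1 and 2. The 3 basal markers summed to 0.36 and 0.204 TPM, the 3 mesenchymal and fibroblast markers, of which COL1A1 was detected, to 1.08 and 1.19, the 2 immune markers to 0 and 0.0754, and the 2 endothelial markers that could be matched to 0 and 0.0456. CD3E and CDH5 were at 0 in both libraries. Nothing in the labels ties the replicates to separate cultures, and p-values and spreads here measure only what separates these samples, which may be technical. In bulk RNA, fewer expressing cells and less RNA per cell cannot be told apart.

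Some of these genes have a meiotic or germline relative that was nearly silent here, and the promoters of an insulator pair and of a ring pair are printed to show what the stretch before the start site looks like on either side of that divide. Each sequence is the stretch of 250 bases before the transcription start in RefSeq on GRCh38.p14, 5′ to 3′ on the gene's strand, with every CpG dinucleotide in capitals. CTCF is taken from chr16:67562276-67562525 on the plus strand, CTCFL from chr20:57524698-57524947, SMC1A from chrX:53422729-53422978 and SMC1B from chr22:45413600-45413849 on the minus strand. Where RefSeq lists several starts, the first entry is shown.
CTCF: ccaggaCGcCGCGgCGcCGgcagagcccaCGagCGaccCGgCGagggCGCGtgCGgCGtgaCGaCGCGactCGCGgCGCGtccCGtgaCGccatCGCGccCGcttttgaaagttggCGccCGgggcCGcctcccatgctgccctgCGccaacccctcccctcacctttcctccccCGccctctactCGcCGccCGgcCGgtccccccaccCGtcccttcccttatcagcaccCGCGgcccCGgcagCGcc
CTCFL: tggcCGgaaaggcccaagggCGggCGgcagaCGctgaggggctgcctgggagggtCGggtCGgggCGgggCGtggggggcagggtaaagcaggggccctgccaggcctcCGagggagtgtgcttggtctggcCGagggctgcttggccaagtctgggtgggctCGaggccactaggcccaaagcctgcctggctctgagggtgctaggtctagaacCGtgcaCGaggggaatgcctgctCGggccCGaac
SMC1A: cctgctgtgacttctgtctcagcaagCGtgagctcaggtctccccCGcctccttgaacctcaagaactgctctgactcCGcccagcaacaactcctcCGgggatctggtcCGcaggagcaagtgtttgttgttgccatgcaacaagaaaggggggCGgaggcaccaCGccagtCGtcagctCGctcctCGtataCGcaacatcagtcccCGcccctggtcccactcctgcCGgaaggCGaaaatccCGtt
SMC1B: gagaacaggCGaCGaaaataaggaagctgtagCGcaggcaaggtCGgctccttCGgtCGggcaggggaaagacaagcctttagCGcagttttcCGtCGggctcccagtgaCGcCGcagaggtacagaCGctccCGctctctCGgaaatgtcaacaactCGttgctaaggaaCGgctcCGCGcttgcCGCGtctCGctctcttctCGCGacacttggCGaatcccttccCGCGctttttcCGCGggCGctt
The CTCF promoter held 39 CpGs and that of its relative CTCFL 15, but the ring pair had the opposite order, with 15 for SMC1A and 29 for SMC1B. Across the 9 members with an entry (RAD21 has none in the table), the count ran from 15 to 41 with a median of 34, against a median of 11 over 35116 promoters of the same length. The 5 germline relatives had 14 to 31 CpGs with a median of 21. PDS5B had the most CpGs among the members, 41, and more than 98.3% of all promoters. The second SMC1A entry had 24 CpGs, the other STAG2 entries had 13 and 14, below the range of the first entries, and the other CTCFL entries had 7 and 2.

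Short motifs were searched on both strands of the same 250 bases, in the first entry of each gene. The letters CCAAT were found in 5 of 9 member promoters (STAG1, PDS5A, WAPL, PDS5B and STAG2) and in 32.01% of all promoters. The GC box core GGGCGGG was found in 4 of 9 (STAG1, PDS5B, CTCF and SMC1A), against 31.5% of all. The NRF1 motif was found in STAG1, WAPL and STAG2, against 5.08% of all promoters, and the ETS motif CCGGAAG in NIPBL and SMC1A, against 8.52%. The letters TATAAA were in none of the 9 and in 10.7% of all promoters. The full palindromic estrogen response element was in none of the 9 and in 0.0399% of all, and the CTCF consensus was in none and in 0.0513%. At such low rates almost any set of 9 promoters would hold none, so these absences say nothing about the members. All the motifs above are matches of letters in a short window and were not tied to binding.

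All 10 genes were detected at 1 CPM (reads scaled to the same library total, with no division by length) or more in both libraries, a threshold passed by 24.5% of all genes and by 60.9% of protein-coding genes of the nuclear genome. Together they took 80187 reads in replicate 1 and 63198 in replicate 2, or 0.194% and 0.17% of the libraries. The median level of the 10 was 34.7 TPM in replicate 1 and 26.5 in replicate 2, against 9.89 and 8.61 TPM for the median of the 11718 protein-coding genes detected. Levels spanned from PDS5B to RAD21, at 8.79 ± 1.44 to 87.5 ± 18.8 TPM (SD, n = 2), so the machinery was not at a common level. With member lengths taken from the longest coding transcript, these ends were 15.5 and 144.5, and PDS5A moved from 28.6 to 48.6. The library totals kept the summed exon lengths, so these values are not TPM and cannot be set beside the medians above.

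**Figure D1:**
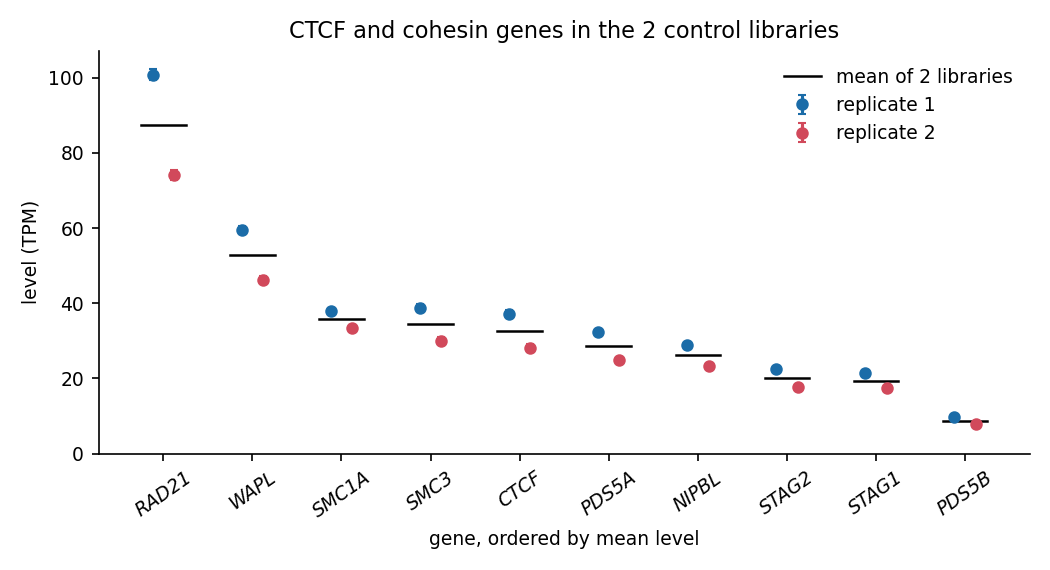
Level in TPM (vertical axis, from 0) of each of the 10 genes in replicate 1 and replicate 2, with the mean as a bar and exact Poisson 95% intervals of the counts, which are mostly smaller than the points. RAD21 stood highest with 100.8 and 74.2 TPM, PDS5B lowest with 9.81 and 7.78, and every gene had its higher value in replicate 1. The median of detected protein-coding genes was also higher there, at 9.89 against 8.61 TPM.

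Among the ring genes, the kleisin RAD21 stood apart from the SMC subunits. RAD21 (ENSG00000164754.8, hg19 chromosome 8, 117858174 to 117887105, minus strand), which closes the ring and is cut by separase at anaphase, reached 100.8 TPM (99.3 to 102.4, the 95% counting interval) in replicate 1 and 74.2 (72.9 to 75.5) in replicate 2. SMC1A (ENSG00000072501.13, chromosome X, 53401070 to 53449677, minus strand), an ATPase arm of the ring, had 38.0 and 33.5 TPM. SMC3 (ENSG00000108055.9, chromosome 10, 112327449 to 112364394, plus strand), the other ATPase arm and the one acetylated to hold the ring shut, had 38.8 and 30.0 TPM. RAD21 lay above 95.9% and 94.8% of detected protein-coding genes in the 2 libraries, and the SMC genes above 83.8% to 86.0%. The values of SMC1A and SMC3 overlapped between libraries, and neither overlapped those of RAD21.

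Within each library RAD21 was 2.65-fold (2.59 to 2.72) and 2.21-fold (2.16 to 2.27) above SMC1A, and 2.60-fold (2.52 to 2.69) and 2.47-fold (2.38 to 2.57) above SMC3. Both differences exceeded the replicate spread, which was taken as the 95th percentile of absolute log2 differences between the 2 libraries among genes with similar reads (0.28 on the log2 scale here). With the longest coding transcript in place of the summed exon length, RAD21 stood 3.72-fold above SMC1A and 4.03-fold above SMC3, since its summed exons span 6192 bases and its longest coding transcript 3749. In CPM, where length is not divided out, RAD21 was 1.41-fold above SMC1A. SMC1A and SMC3 themselves differed by less than the spread, with ratios of 0.98 (0.946 to 1.01) and 1.12 (1.07 to 1.16) in the 2 libraries, though in CPM SMC1A was 2.61-fold above SMC3. With 2 libraries an exact sign-flip test of a ratio cannot give a p under 0.5, so these comparisons rest on the spread and the counting intervals. Neither covers a bias of a gene that both libraries share, such as from its length or its overlap with other genes.

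The STAG subunits were at nearly equal level. STAG1 (ENSG00000118007.8, chromosome 3, 136055077 to 136471220, minus strand), the form more tied to telomere cohesion and to CTCF sites, had 21.5 TPM (20.9 to 22.2) in replicate 1 and 17.3 (16.8 to 17.9) in replicate 2. STAG2 (ENSG00000101972.14, chromosome X, 123094062 to 123556514, plus strand), the form often mutated in cancer, had 22.4 (21.8 to 23.1) and 17.7 (17.1 to 18.2). STAG1 thus made up 49.0% and 49.5% of the summed STAG level in the 2 libraries. The interval of the STAG2 to STAG1 ratio was 1.0 to 1.09 in replicate 1 and 0.974 to 1.07 in replicate 2. STAG1 shares 21.3% of its exon bases with the neighbouring gene PCCB, where a read can fit both genes, against 3.29% of STAG2 shared with STAG2-AS1 and TENM1. The part of this overlap in the STAG ratio was not tested.

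A ring holds a single STAG subunit, and the sum of both STAG genes was set beside the ring genes, a comparison chosen after the values were seen. The sum was 43.98 TPM in replicate 1 and 35.01 in replicate 2. It was 1.16-fold and 1.04-fold the level of SMC1A, 1.14-fold and 1.17-fold that of SMC3, and 0.436-fold and 0.472-fold that of RAD21. By longest coding transcript the same sum was 1.43-fold and 1.28-fold SMC1A, 1.45-fold and 1.48-fold SMC3, and 0.349-fold and 0.378-fold RAD21. Per length the summed STAG level was thus nearer to either SMC gene than to RAD21. In reads, with no division by length, the STAG genes had 9331 and 7430. That lay between SMC3 (4391 and 3405) and SMC1A (10744 and 9487), with RAD21 at 16543 and 12181.

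The loader and the release factors did not share a level. NIPBL (ENSG00000164190.12, chromosome 5, 36876861 to 37066515, plus strand), the loader and motor cofactor whose loss of a copy causes Cornelia de Lange syndrome, had 28.9 and 23.4 TPM. WAPL (ENSG00000062650.13, chromosome 10, 88195013 to 88281572, minus strand), which opens the ring, had 59.4 and 46.3 TPM. WAPL was 2.05-fold (2.0 to 2.11) and 1.98-fold (1.92 to 2.04) above NIPBL, beyond the spread, but in CPM the ratio was 1.17 and no longer passed. MAU2, the partner of NIPBL in the loading complex, had 5.90 and 5.83 TPM, and NIPBL stood 4.91-fold and 4.02-fold above it. By longest coding transcript that ratio was 2.39, since the summed exons of MAU2 span 11162 bases and its longest coding transcript 4994.

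PDS5A and PDS5B, which hold WAPL or acetylation enzymes to the ring, differed clearly in level, unlike the STAG pair, whose ratio stayed within the spread. PDS5A (ENSG00000121892.10, chromosome 4, 39824483 to 39979576, minus strand) had 32.3 TPM (31.7 to 32.9) and 24.9 (24.3 to 25.4). PDS5B (ENSG00000083642.14, chromosome 13, 33160564 to 33352157, plus strand) had 9.81 (9.49 to 10.1) and 7.78 (7.49 to 8.08). PDS5A supplied 76.7% and 76.2% of their summed level, and the ratio of 3.29 (3.17 to 3.42) and 3.20 (3.06 to 3.34) exceeded the spread on every length tried. WAPL stood 1.84-fold and 1.86-fold above PDS5A, which in CPM came to 1.10 and did not pass.

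CTCF (ENSG00000102974.10, chromosome 16, 67596310 to 67673086, plus strand) had 37.1 TPM (36.0 to 38.2) in replicate 1 and 28.1 (27.1 to 29.1) in replicate 2, above 85.2% and 82.3% of detected protein-coding genes. In TPM CTCF stood beside the SMC genes and not beside RAD21, which was 2.72-fold and 2.64-fold higher (4.11-fold by longest coding transcript). PDS5A also lay within the spread of CTCF in TPM. The mean of CTCF in CPM was 94.15, near SMC3 at 98.84 but below SMC1A at 257.4 and RAD21 at 363.7. YY1, another DNA-binding protein that bridges enhancers and promoters, was at 38.0 and 30.5 TPM, and its ratio to CTCF of 1.02 (0.986 to 1.06) and 1.09 (1.04 to 1.14) lay within the spread. In CPM YY1 was 1.84-fold above CTCF, because its summed exons are longer (7481 bases against 4301).

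**Figure D2:**
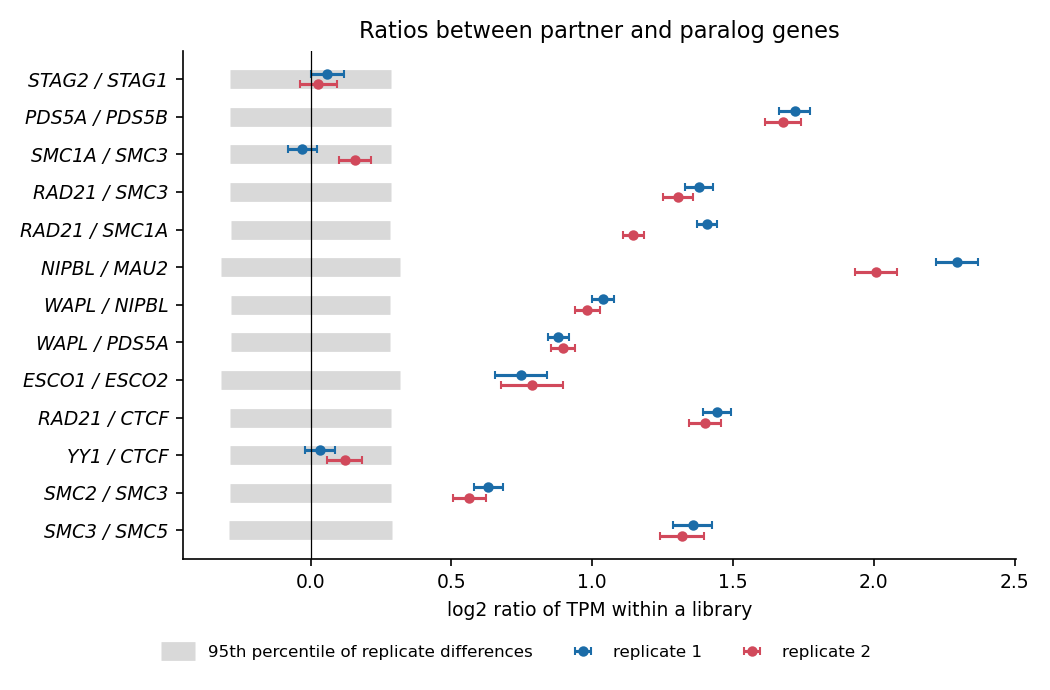
Log2 ratio of TPM within a library (horizontal axis) for 13 pairs of partner or paralog genes, with exact conditional binomial 95% intervals for replicates 1 and 2 and the replicate spread as a grey band. STAG2 to STAG1, SMC1A to SMC3 and YY1 to CTCF lie inside the band, and the other 10 pairs lie outside it in both libraries.

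Ordered by mean TPM, the genes ran RAD21, WAPL, SMC1A, SMC3, CTCF, PDS5A, NIPBL, STAG2, STAG1 and PDS5B. Of the 9 neighbouring pairs in this order 4 differed beyond the spread: RAD21 above WAPL (1.65-fold), WAPL above SMC1A (1.47-fold), NIPBL above STAG2 (1.31-fold) and STAG1 above PDS5B (2.21-fold). In these 4 pairs the values of the 2 genes did not overlap between libraries. From SMC1A through SMC3, CTCF and PDS5A to NIPBL no step exceeded it, nor did that from STAG2 to STAG1. The step from NIPBL to STAG2 was 1.16-fold by longest coding transcript and then within the spread. By that length PDS5A moved up to follow WAPL, 1.38-fold above CTCF, and its step of 1.54-fold above NIPBL then passed. In CPM SMC1A stood above SMC3 beyond the spread (log2 ratio 1.39), and CTCF fell below PDS5A (-1.32, and -0.47 by longest coding transcript). The CPM step from WAPL to SMC1A was 1.00-fold and did not pass, and that from STAG1 to PDS5B was 1.31-fold. By the mean of both libraries, RAD21 and WAPL stayed first and second and PDS5B last under TPM, CPM and transcript length alike. In CPM, WAPL and SMC1A had close means of 258.7 and 257.4. In replicate 2 alone SMC1A, at 255.0 CPM, stood above WAPL, at 240.2.

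**Figure D3:**
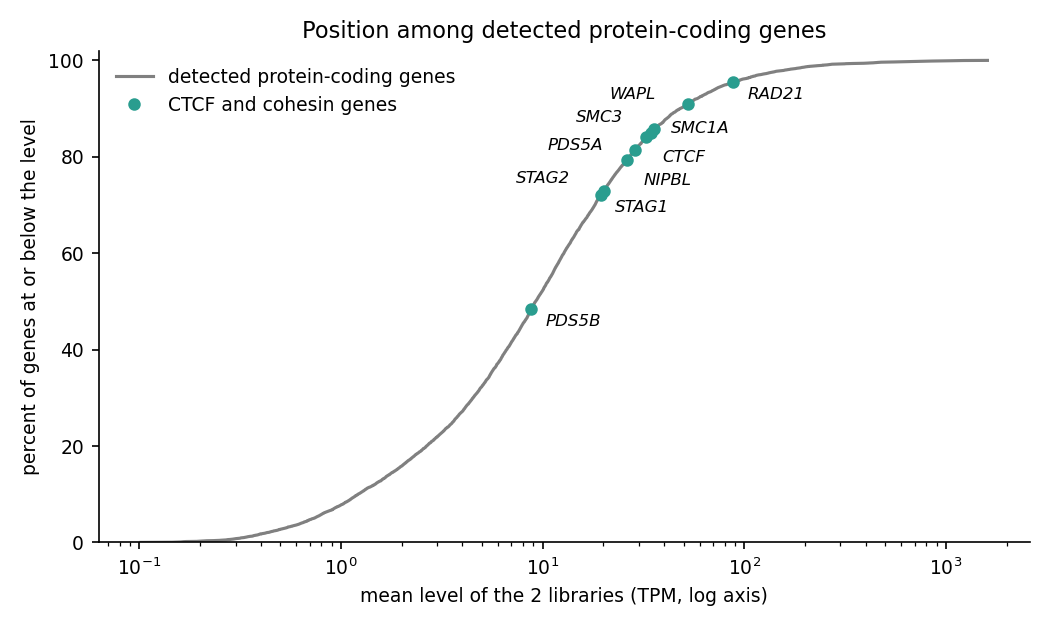
Percent of detected protein-coding genes of the nuclear genome (vertical axis) at or below a given mean level (TPM, log axis), with the 10 genes marked on the curve. All but PDS5B lie in the upper part, from STAG1 at 19.4 TPM to RAD21 at 87.5, and PDS5B lies near the middle at 8.79 TPM.

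Counting conditions differed between the members. PDS5A, PDS5B, NIPBL, WAPL, SMC3 and CTCF shared no exon base with another row of the table. RAD21 shared 14.2% of its exon bases with 3 other rows, among them UTP23 and RAD21-AS1, and SMC1A shared 0.365%. In the longest coding transcript of GENCODE release 29, no stretch of 50 bases of CTCF, SMC1A, STAG2, NIPBL, WAPL, PDS5A or PDS5B occurred in a transcript of another gene. STAG1 shared 26.9% of such stretches with PCCB, RAD21 8.78% with 4 other genes, and SMC3 8.24% with AC019097.1. No paralog pair of the members thus shared a stretch of that length. The part of shared bases in the levels of STAG1, RAD21 and SMC3 was not tested.

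The germline and meiotic relatives were low or without reads. CTCFL, the testis paralog of CTCF, had no reads in either library. Set against a floor of 3 reads per library (0.0127 TPM), CTCF was at least 2922-fold higher in replicate 1 and at least 2212-fold higher in replicate 2. By longest coding transcript, which for CTCFL is 4040 bases against 8915 of summed exons, the mean bound was 1242-fold, and in CPM 1227-fold. RAD21L1, a meiotic kleisin, had 1 read and 0 reads. SMC1B, the meiotic partner of SMC3, had 42 and 35 reads (0.373 and 0.31 TPM), and SMC1A was 101.9-fold (75.3 to 141) and 108-fold (77.6 to 155) above it. STAG3, the meiotic STAG form, had 52 and 40 reads (0.229 and 0.176 TPM), and STAG2 was 98.2-fold and 100.5-fold above it. Of the exon bases of STAG3, 32.3% also belong to other rows. REC8, the kleisin of meiotic cohesion, had 51 and 101 reads (0.501 and 0.992 TPM), so RAD21 was 201-fold (153 to 270) above it in replicate 1 and 74.8-fold (61.5 to 91.9) in replicate 2.

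Of the 30 genes of the wider machinery 27 were detected, SMC1B, RAD21L1 and CTCFL being the exceptions. In the cycle that acetylates and locks the ring, 7 of 7 genes were detected. Sororin, encoded by CDCA5, which keeps acetylated rings closed until mitosis, led this list with 66.3 and 59.4 TPM, followed by DSCC1, a subunit of a clamp loader at the replication fork, with 17.4 and 13.7. The SMC3 deacetylase HDAC8 was lowest with 4.43 and 3.94 TPM. The acetyltransferase ESCO1 had 14.7 and 10.3 TPM and its S-phase relative ESCO2 8.76 and 5.95. ESCO1 was 1.68-fold and 1.73-fold above ESCO2, but the order turned by longest coding transcript (ratio 0.978), and in CPM the ratio of 1.13 lay within the spread.

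All 4 genes that protect or cut the ring at mitosis were detected. Securin, encoded by PTTG1, which restrains separase, had 174 and 165 TPM and was the highest gene of the wider lists. Separase itself, ESPL1, had 18.2 and 14.9 TPM. The shugoshins, guardians of centromere cohesion, had 11.1 and 8.29 TPM for SGO2 and 8.48 and 6.45 for SGO1. Among 9 other architectural proteins, all detected, LDB1, which joins enhancers to promoters, was highest with 75.9 and 72.0 TPM, followed by the topoisomerase TOP2B with 69.6 and 57.7, and the zinc finger gene WIZ was lowest with 2.97 and 3.25.

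SMC proteins of other complexes gave a scale for the ring genes. The condensin genes SMC4 and SMC2 had 64.3 and 46.0, and 60.0 and 44.4 TPM, and SMC2 was 1.55-fold (1.49 to 1.60) and 1.48-fold (1.42 to 1.54) above SMC3. SMC4 shares 25.6% of its exon bases with IFT80 and TRIM59, and the part of this overlap in its level was not tested. SMC5 and SMC6, of the repair complex named after them, had 15.1 and 12.0, and 9.37 and 7.27 TPM. SMC3 was 2.56-fold and 2.49-fold above SMC5 (1.65-fold in CPM, where SMC2 was 2.29-fold above SMC3). In TPM the cohesin SMC genes lay between those of condensin and those of the repair complex in both libraries. In CPM SMC1A, at 259.7 and 255.0, lay above SMC2, at 248.5 and 204.7.

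**Figure D4:**
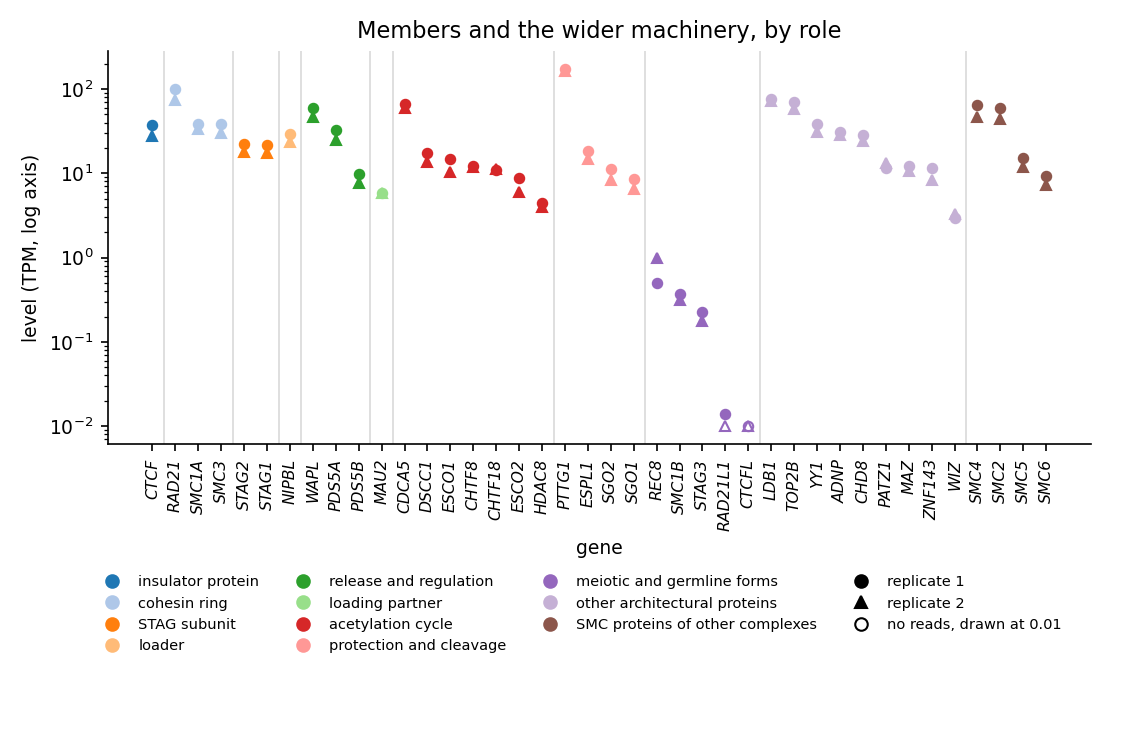
Level in TPM (log axis) of the 10 members and the 30 genes of the wider machinery, grouped by role, with circles for replicate 1, triangles for replicate 2 and open symbols drawn at 0.01 for no reads. The meiotic and germline forms are the only group with every value below 1 TPM.

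The libraries were also compared for each gene by a two-sided exact binomial test at TMM library sizes, with Benjamini-Hochberg adjustment over 14668 genes. With 1 library on each side it compares these libraries, not conditions. It allows for counting error only and does not measure the spread between replicates. The test used TMM-scaled reads, whose direction can differ from that of TPM. Of the 7 wider genes called higher in replicate 2, MAU2 (5.90 and 5.83 TPM), PTTG1 (174 and 165) and LDB1 (75.9 and 72.0) were lower there in TPM. CHTF18, PATZ1, WIZ and REC8 were higher on both scales. Of the 10 members 9 were lower in replicate 2 and none was higher, while 20.4% of all genes tested were called lower and 19.6% higher. The median log2 difference of the members was -0.18, against 2.60e-04 over all genes tested.

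The differences were small, and SMC1A stood outside them. RAD21 had the widest, 1.202-fold lower in replicate 2 (log2 difference -0.26, adjusted p of the exact binomial test = 1.84e-51). CTCF was 1.17-fold lower there (-0.22, exact adjusted p = 5.06e-10) and PDS5A 1.15-fold (-0.20, exact adjusted p = 6.57e-19). SMC3, WAPL, STAG2, PDS5B, STAG1 and NIPBL followed with log2 differences of -0.19 to -0.13. SMC1A did not pass (log2 difference -0.0028, exact adjusted p = 0.939), with 259.7 and 255.0 CPM. The counting intervals of the RAD21 to SMC1A ratio did not overlap between the libraries, and neither did those of SMC1A to SMC3.

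**Figure D5:**
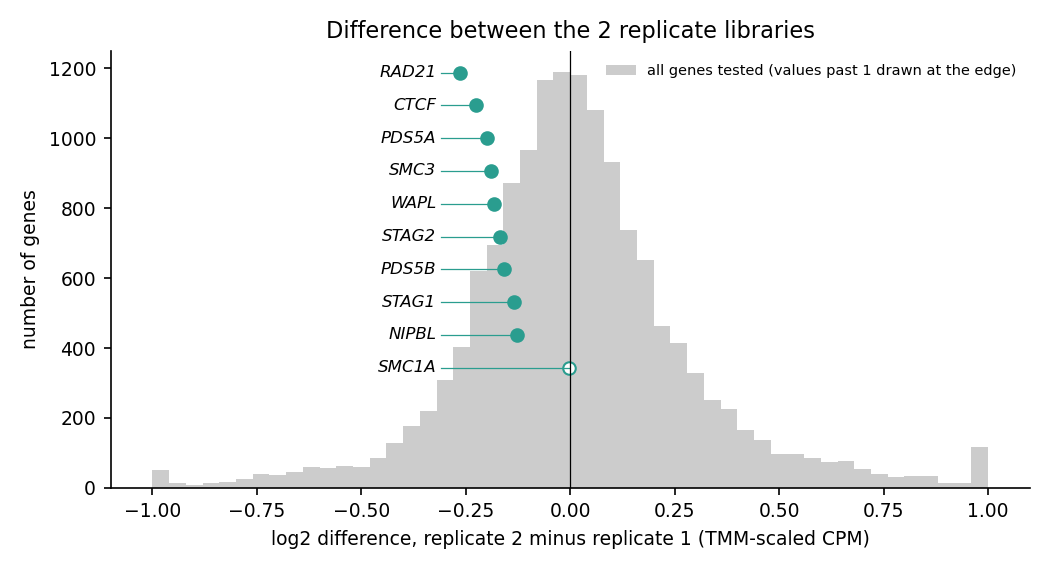
Log2 difference between the libraries (replicate 2 minus replicate 1, TMM-scaled CPM, horizontal axis) of all genes tested as a histogram, with the 10 members as points, filled where the exact binomial test called them lower. The 9 filled points lie between -0.26 and -0.13 and SMC1A at -0.0028, all within the body of the histogram.

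Among tested genes, 10.5% had a difference as low as that of RAD21 or lower, and 26.2% as low as that of NIPBL or lower. All 10 members belonged to the fifth of tested genes with the most reads, in which 1112 of 2934 genes were lower and 706 higher, and 6 of them to the fifth with the longest exons, in which 29.5% were lower and 18.5% higher. The part of read depth and length in the members' count was not tested. In the wider lists 13 of 27 tested genes were lower in replicate 2 and 7 higher. All 4 SMC genes of other complexes were lower (log2 differences of -0.31 to -0.15), as were 3 of 4 genes of protection and cleavage, while the architectural proteins split evenly, with 3 lower and 3 higher. MAU2 was higher (0.16, exact adjusted p = 0.00429), against its partner NIPBL (-0.13), and REC8 was higher (1.16, exact adjusted p = 1.47e-05).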

How the data were processed

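Total RNA of T47D cells with ESR1 Y537S and 25 nM control siRNA went into stranded total RNA libraries with spike-in RNA, per the labels' protocols. The deposited values are whole-number counts without normalization, made by the authors with featureCounts 2.0.2 on exons of GENCODE release 19, per the file headers; no strand, paired-end, multimapping or overlap option is recorded, so antisense partners cannot be told apart and mates may be counted singly. HISAT2 and hg19 come from the submitters' processing notes. The gene lengths in the deposited table are the authors' summed exon lengths. Columns were matched by cell line, receptor residue and replicate, since their names do not repeat the siRNA, and 8 other columns of per-sample values were not used.

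CPM was scaled to all counted reads and TPM used the deposited lengths. Gene names came from the supplied identifier table (51996 matched, 89.9%) and gene types from GENCODE release 29. TMM factors came from edgeR 4.0.16 and alternative size factors from DESeq2 1.42.0. The binomial test took genes with a mean of 1 CPM or more, at an adjusted threshold of 0.05, and was tested on simulated data that held counting error alone. The replicate spread was taken in 10 classes of mean CPM. Counting intervals are exact Poisson or conditional binomial 95% intervals, the floor for 0 was 3 reads per library, and both cover counting error only, since reads are not independent molecules. The libraries were kept as 2 replicates (chi-square 22.5 per gene, above counting error). Named were all members, lists of 5 or fewer in full, the highest 2 and the lowest of longer lists, and the genes of 17 listed pairs. Members and lists were chosen with earlier results of these data known. Alternatives were the scale, length, normalization, filter, detection threshold, spread and single libraries.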

Additional observations from a re-analysis of the deposited data

How the results depend on the processing

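The median level of the 10 genes, 30.6 ± 5.81 TPM over both libraries, came to 108 TPM when scaled to nuclear protein-coding genes only and to 165.6 in CPM, and ranged from 26.5 to 34.7 in single libraries. The calls of 10 members detected and 9 lower in replicate 2 held in number under every alternative run for them (thresholds of 0.5 CPM and 1 TPM and single libraries; total counts, DESeq2 size factors and no filter). Of the wider genes 25 to 28 were detected. Neighbours in the TPM order beyond the spread numbered 3 to 5, with 4 from either library alone. Which pairs passed changed in CPM and by longest coding transcript, and CTCF to PDS5A was counted there with its direction turned. The log2 ratio of CTCF to PDS5A, 0.19 in TPM, turned to -1.32 in CPM and to -0.47 by longest coding transcript, an alternative chosen after seeing the data, and that of ESCO1 to ESCO2, 0.77, to -0.031 by that length; both alternatives change the length divisor alone. The NIPBL to STAG2 step did not pass the 99th percentile of the spread. Counting error is small for the members (at least 2725 reads each) and wide for SMC1B, STAG3 and REC8. No paired analysis was possible because the labels give 1 group.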
